A study of Mus musculus with 6 samples.

Results

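The 35 genes described here serve DNA replication, and they were taken by symbol from a table of 54100 genes counted in fibro-adipogenic progenitors (FAPs), the Pdgfra+ mesenchymal progenitor cells that lie between the fibres of skeletal muscle. Each symbol matched 1 row. The cells came from the plantaris, a calf muscle, of C57BL/6 mice, and 3 libraries stand for each of sham and overloaded muscle. According to the labels each library was made from 1000 sorted cells, and nothing says whether libraries came from separate animals, so a p-value here covers only the spread from library to library, and that may be technical. The sources used here do not give the age and sex of the mice, the way the muscle was overloaded or the length of the overload.

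A cell copies its DNA once per division. In G1 the ring-shaped helicase formed by the products of Mcm2 to Mcm7 is loaded at origins with the help of Cdc6 and Cdt1, and at the start of S phase it is switched on by Cdc45, Mcm10 and the GINS complex. Polymerases, the sliding clamp and its loader then copy the strands, while ribonucleotide reductase and related enzymes supply the nucleotides and histone chaperones repackage the new DNA. Transcription factors of the E2F family, freed by cyclin and cyclin-dependent kinase activity, drive many of these genes. In resting adult muscle most FAPs do not divide, and they are known to enter the cell cycle after injury.

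Replication transcripts were higher in overloaded FAPs for most of the genes that had enough reads, with the largest rises in Mcm2 and Rrm2. All 35 genes together held 236, 151 and 217 counts in the sham libraries, in the order 1 to 3, and 727, 598 and 905 counts in the overloaded ones. Scaled to 1000000 counts in each library this was 328, 302 and 288 in sham and 647, 703 and 1013 in overloaded FAPs. Every overloaded library thus stood above every sham library, and overloaded library 3 stood above the other overloaded libraries. The mean was 305.7 ± 20.3 scaled counts in sham and 787.6 ± 197.5 in overloaded libraries (SD, n = 3 in each group), a ratio of 2.58. In bulk samples a larger number of cells in S phase and more RNA per cell cannot be told apart.

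**Figure D1:**
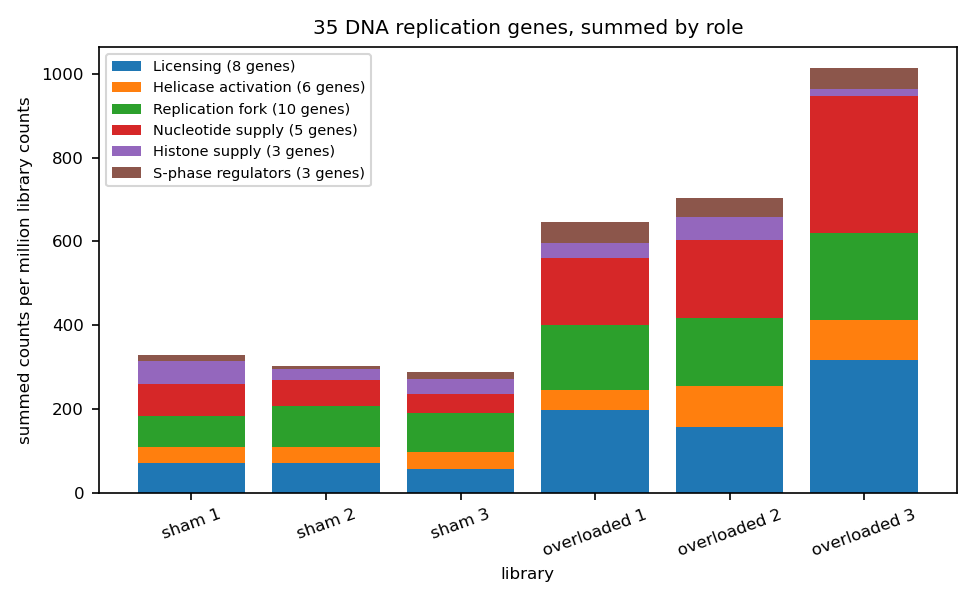
Summed counts of the 35 replication genes, scaled to 1000000 counts in each library, with 1 bar per library and the colours giving 6 roles. The sham bars end at 328, 302 and 288 and the overloaded bars at 647, 703 and 1013 scaled counts, and the histone supply segment is the only role whose mean was not higher in overloaded libraries.

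Depth was low and differed between the groups, from 500402 to 754456 total counts in sham and from 850857 to 1124210 in overloaded libraries. Of the 35 genes, 16 passed the filter on low counts and were tested. A gene can pass that filter through the overloaded libraries alone, so the share of tested genes that rose is partly set by the filter. By edgeR's quasi-likelihood test, with p adjusted over all 7207 genes tested and a threshold of 0.05, 10 of the 16 were higher in overloaded FAPs, 0 were lower and 6 were not called. Over all genes tested 29.3% were called, and 15% were called in the higher direction. The median log2 fold change was 1.39 for the 16 and -0.02 for all 7207 genes. The number called higher was 5 of 12 tested with libraries thinned to equal depth, 5 of 16 with the share of background reads as a covariate, and 2 of 3 tested at a minimum count of 30. It was 8 without overloaded library 3, in each case with 0 lower. Over all genes 801 of 5994 were called higher after thinning, 488 of 7207 with the covariate and 847 of 3955 at that minimum count.

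Every overloaded library lay above every sham library for 10 of the 16 members tested, where 21.2% of all genes tested showed that order. These are the 10 called genes, which were called on the same libraries. A gene with few sham reads passes the filter only if every overloaded library holds enough reads. The filter thus partly sets this order too, for the members and for all genes tested. Without any filter the order held for 18 of the 35, where 7.30% of the 28251 genes with at least 1 count showed it, and the reverse order held for 0 of the 35. With no count filter edgeR called 14 of the 34 members with a count as higher, where 3.80% of genes were called higher. Of those 28251 genes 7207 passed the filter, against 16 of the 35 members. The shares of 7.30% and 3.80% thus come from a pool with a larger part of low-count genes than the members.

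All 5 helicase subunits that could be tested rose. Mcm2 (chromosome 6, 88883474 to 88898780) had 1, 0 and 0 counts in the sham libraries, against 35, 24 and 22 after overload. It was close to absent from sham FAPs, and all overloaded libraries held it at a similar level. In CPM (counts scaled to 1000000 counts in tested genes after TMM, the trimmed mean of M-values) the mean went from 0.477 ± 0.827 to 29.7 ± 4.12, and the ratio of summed counts was 57.7 with an exact 95% counting interval of 10.1 to 2306. It was called higher (edgeR adjusted p = 2.25e-06), and the size of its log2 fold change, 5.46 with an SE of 0.76, depends on the prior count of the fit, since the 1 sham read lies in sham library 1. Without that library it was 7.57.

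Mcm7 (chromosome 5, 138164583 to 138172422) had 3, 7 and 2 counts in the sham libraries, against 27, 20 and 54 after overload, or 7.17 ± 6.42 and 37.8 ± 21.3 CPM. Its log2 fold change was 2.53 (SE 0.53, edgeR adjusted p = 0.000653), and 3.39 without sham library 2, which held most of the sham reads. With the background covariate it was 2.02 and the call was lost (edgeR adjusted p = 0.0735). Overloaded library 3 had more than the other overloaded libraries. Exons of Mcm7 overlap those of 4 other annotated genes, on either strand, so its counts are uncertain to that extent.

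Mcm3 (chromosome 1, 20802968 to 20820312) had 7, 5 and 3 counts in the sham libraries, against 34, 18 and 32 after overload, or 8.14 ± 3.56 and 30.8 ± 7.41 CPM, with a log2 fold change of 1.95 (SE 0.47) and an edgeR adjusted p of 0.00181. Mcm6 (chromosome 1, 128331590 to 128359664) had 15, 12 and 3 counts in the sham libraries, against 40, 29 and 39 after overload, or 16.8 ± 11.2 and 39.98 ± 4.56 CPM, with a log2 fold change of 1.31 (SE 0.42) and an edgeR adjusted p of 0.0192. Sham library 3 was the low one for both genes. Mcm4 (chromosome 16, 15623897 to 15637400) had 18, 4 and 24 counts in the sham libraries, against 41, 31 and 59 after overload, or 22.1 ± 12.4 and 48.9 ± 16.8 CPM, with a log2 fold change of 1.07 (SE 0.38) and an edgeR adjusted p of 0.0320. Mcm4 lost its call without sham library 1, sham library 2 or overloaded library 3, and Mcm6 without sham library 3 or overloaded library 3. Mcm3 lost its call with the background covariate (edgeR adjusted p = 0.0960). Mcm4 and Mcm6 also lost theirs with that covariate, after thinning and with DESeq2, with adjusted p from 0.0194 to 0.603 for Mcm4 and from 0.00939 to 0.150 for Mcm6 over 17 alternatives.

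Mcm5 (chromosome 8, 75109569 to 75128439) had 1, 1 and 0 counts in the sham libraries, against 28, 9 and 50 after overload and missed the filter, as overloaded library 2 held few reads. The ratio of its summed counts was 31.0, with a counting interval of 8.32 to 259.8. In the unfiltered edgeR fit its log2 fold change was 4.82 (SE 0.71, edgeR adjusted p = 2.12e-09).

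The make-up of the 6 helicase transcripts differed between the groups. Mcm4 and Mcm6 held 43.4% and 28.3% of their 106 sham counts, and Mcm2 and Mcm5 held 0.943% and 1.89%. Of the 592 counts in overloaded libraries, Mcm4 held 22.1%, Mcm6 18.2%, Mcm7 17.1%, Mcm5 14.7%, Mcm3 14.2% and Mcm2 13.7%. The shares were thus more even in overloaded than in sham FAPs, and this difference was not tested.

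The loading factors had fewer reads and missed the filter. Cdc6, the ATPase that recruits the helicase, had 2, 4 and 9 counts in the sham libraries, against 8, 1 and 11 after overload, a ratio of 0.949 (95% counting interval 0.462 to 1.99.) Cdt1, which brings the helicase to origins, had 3, 2 and 2 counts in the sham libraries, against 8, 2 and 15 after overload, a ratio of 2.54 (95% counting interval 1.07 to 6.96.) The groups overlapped for both genes. Counting intervals take no account of the spread between libraries.

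The promoters of these genes were read from RefSeq windows on GRCm38.p6 that run from 250 bases before to 50 bases after the start of a transcript. Windows were found by symbol for 28 of the 35 genes. The E2F words TTTCCCGC, TTTCGCGC, TTTGCCGC and TTTGGCGC, searched on both strands with overlaps allowed, occurred in a window of 10 of the 28, against 2.61% of the 27025 genes in the promoter table. Those 10 were Mcm3, Mcm5, Mcm6, Mcm7, Cdc6, Cdt1, Gins3, Pola1, Rfc3 and Lig1. Among other replication genes, described further below, 22 of 69 with a window held an E2F word. That was 31.9%, near the 35.7% of the 28, so the words were not particular to these genes. The words TTTGAA and TTCGAA of the cell-cycle homology region (CHR), an element known from genes of late cell cycle, occurred in 6 of the 28 (21.4%), against 21.7% of the table. Of 9 genes called higher that had a window, 4 held an E2F word. A match is a description of the letters and not evidence of binding.

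The stretches from 200 bases to 1 base before the start are shown for 3 helicase genes and Cdc6, which hold a match in that stretch, and for Rrm2, which had a large rise and no match. Each reads 5′ to 3′ on the strand of the gene, with the E2F words in capitals. In Mcm5 and Mcm6 words on opposite strands overlap and share bases, and the Mcm6 stretch holds a further word nearer the start. Mcm7 has another word after the start, at +17, outside the stretch shown.
Mcm5, chr8:75109309-75109508, plus strand: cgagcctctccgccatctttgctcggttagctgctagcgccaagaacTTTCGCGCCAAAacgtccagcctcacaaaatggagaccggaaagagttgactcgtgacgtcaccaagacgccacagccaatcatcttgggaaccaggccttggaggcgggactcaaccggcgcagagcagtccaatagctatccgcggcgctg
Mcm6, chr1:128359706-128359905, minus strand: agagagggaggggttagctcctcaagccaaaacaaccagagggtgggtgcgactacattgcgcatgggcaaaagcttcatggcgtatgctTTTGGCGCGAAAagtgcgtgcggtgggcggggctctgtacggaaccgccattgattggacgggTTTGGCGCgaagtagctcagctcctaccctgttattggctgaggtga
Mcm7, chr5:138171884-138172083, minus strand: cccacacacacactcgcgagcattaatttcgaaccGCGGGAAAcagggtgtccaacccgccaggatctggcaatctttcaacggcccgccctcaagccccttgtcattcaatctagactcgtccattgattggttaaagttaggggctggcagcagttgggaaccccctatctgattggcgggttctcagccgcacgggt
Cdc6, chr11:98907951-98908150, plus strand: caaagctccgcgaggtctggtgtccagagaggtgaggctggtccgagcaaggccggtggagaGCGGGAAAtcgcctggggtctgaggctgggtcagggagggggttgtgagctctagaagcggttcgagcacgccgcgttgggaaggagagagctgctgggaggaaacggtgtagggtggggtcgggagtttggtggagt
Rrm2, chr12:24708054-24708253, plus strand: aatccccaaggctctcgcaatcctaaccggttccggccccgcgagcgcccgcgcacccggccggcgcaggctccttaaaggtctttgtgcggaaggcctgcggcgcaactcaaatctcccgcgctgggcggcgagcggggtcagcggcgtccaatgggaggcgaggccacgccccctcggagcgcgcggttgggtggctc

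Cdc6 thus holds the same word as Mcm7 in the stretch shown. Cdc6 had too few counts to test, and whether the words go with a change in counts was not tested.

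Among the factors that switch the helicase on, the GINS subunits did not all have the same pattern. Gins2 (chromosome 8, 120578633 to 120589304) had 0 counts in every sham library against 3, 12 and 9 after overload. Against a floor of 3 counts over the sham group its ratio was 5.70. That ratio leaves out counting error in the overloaded reads and is not the limit of an interval. Exons of Gse1 on the opposite strand cover the last 1000 bases of Gins2, and the strand setting of the counting is not stated, so reads of these genes cannot be told apart there. Gins1 (chromosome 2, 150905400 to 150931280) had 2, 0 and 3 counts in the sham libraries, against 13, 14 and 21 after overload, a ratio of 6.84 (95% counting interval 2.73 to 22.0.) Both genes missed the filter and were called by the unfiltered edgeR fit (edgeR adjusted p = 0.00328 for Gins2 and 0.00208 for Gins1).

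Gins4 (chromosome 8, 23226616 to 23237659) had 20, 15 and 22 counts in the sham libraries, against 24, 34 and 25 after overload, or 29.8 ± 1.25 and 31.5 ± 10.04 CPM. Its log2 fold change was 0.07 (SE 0.35, edgeR adjusted p = 0.908), and -0.18 without overloaded library 2. Gins3 had 4, 2 and 0 counts in the sham libraries, against 3, 4 and 3 after overload, a ratio of 1.19 (95% counting interval 0.391 to 3.97.) The groups overlapped for both.

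Cdc45, which forms the active helicase with GINS and the Mcm ring, had 0, 1 and 3 counts in the sham libraries, against 6, 7 and 16 after overload, a ratio of 5.16 (95% counting interval 1.81 to 20.2.) Mcm10, a further activator, had 2 counts in each sham library, against 6, 12 and 13 after overload, a ratio of 3.68 (95% counting interval 1.51 to 10.8.) In CPM all overloaded libraries lay above all sham libraries for both. The unfiltered edgeR fit called neither (edgeR adjusted p = 0.0799 for Cdc45 and 0.144 for Mcm10).

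**Figure D2:**
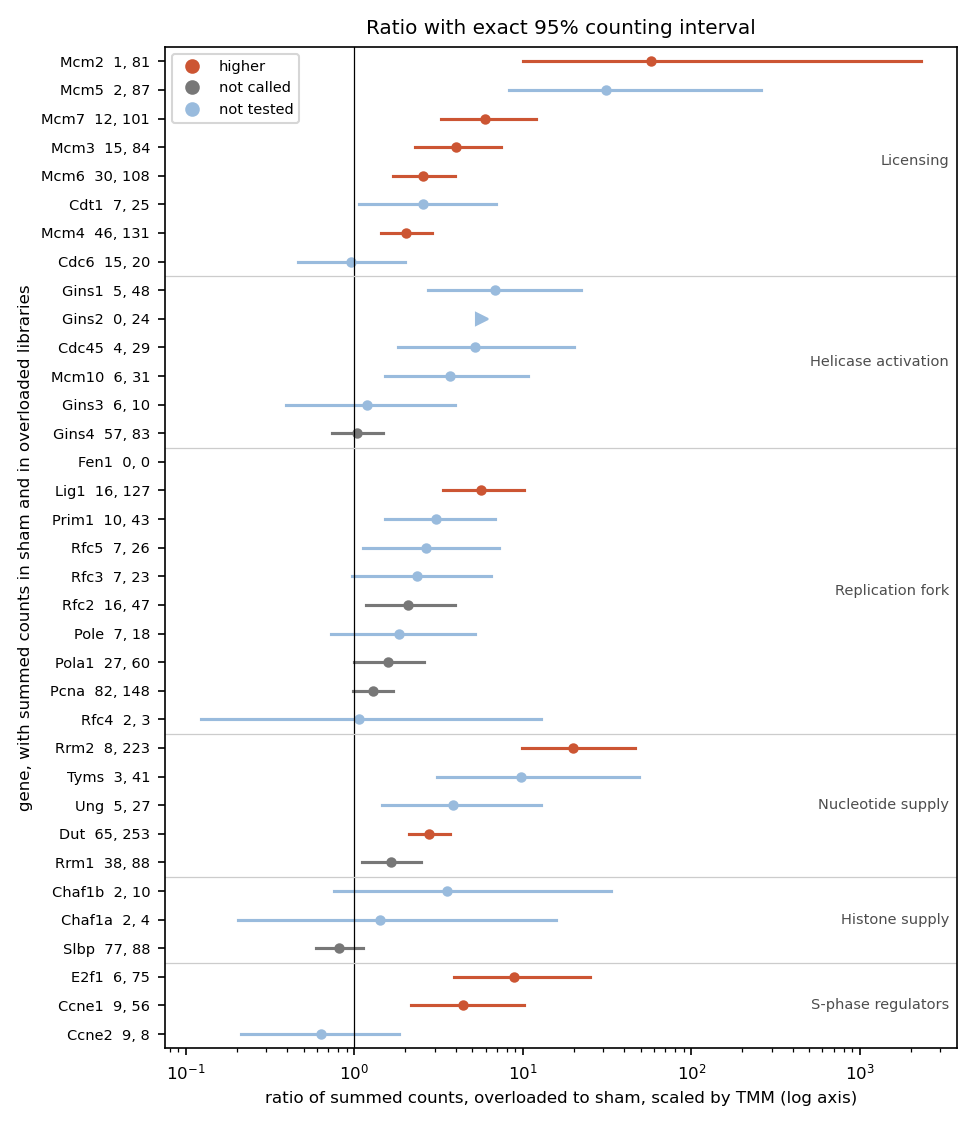
Ratio of summed counts in overloaded to sham libraries for the 35 replication genes, scaled by TMM, on a log axis, with exact 95% counting intervals as lines and the summed counts of each group beside the gene name. Red marks genes called higher, grey those tested and not called and pale blue those with too few counts to test. The triangle is the ratio of 5.70 for Gins2 against a floor of 3 sham counts, which is not the limit of an interval. Fen1 had no counts, and the point farthest to the right is Mcm2 at 57.7.

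At the fork, Lig1, the ligase that joins Okazaki fragments (chromosome 7, 13277283 to 13311433), had 3, 4 and 9 counts in the sham libraries, against 49, 28 and 50 after overload, or 8.23 ± 3.91 and 46.7 ± 11.4 CPM. It rose by 2.47 on the log2 scale (SE 0.43, edgeR adjusted p = 4.51e-05). The lowest overloaded library was above the highest sham library.

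Pcna, the sliding clamp that also serves DNA repair (chromosome 2, 132249162 to 132253314), had 34, 24 and 24 counts in the sham libraries, against 48, 48 and 52 after overload, or 43.6 ± 9.79 and 55.5 ± 8.08 CPM. Overloaded library 1 lay below sham libraries 1 and 2, and the gene was not called (log2 fold change 0.36, SE 0.30, edgeR adjusted p = 0.405). The 95% counting interval of its ratio was 0.975 to 1.70. It was thus among the replication genes with many sham reads, and the groups overlapped. The annotation names 2 pseudogenes of Pcna and 1 of Tyms, and whether these affect the counts of either gene was not tested.

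Pola1, the catalytic subunit of the polymerase that starts each strand, had 5, 7 and 15 counts in the sham libraries, against 22, 10 and 28 after overload (log2 fold change 0.65, SE 0.47, edgeR adjusted p = 0.314). Its log2 fold change was -0.32 with the background covariate. Rfc2, a subunit of the clamp loader, had 2, 7 and 7 counts in the sham libraries, against 15, 18 and 14 after overload (log2 fold change 1.04, SE 0.54, edgeR adjusted p = 0.150). The groups overlapped for both genes.

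The other clamp loader subunits missed the filter. Rfc5 had 2, 1 and 4 counts in the sham libraries, against 16, 4 and 6 after overload, a ratio of 2.64 (95% counting interval 1.12 to 7.22), and Rfc3 had 0, 2 and 5 against 7, 6 and 10, a ratio of 2.34 (95% counting interval 0.972 to 6.46.) Rfc4 had 2 counts in all sham and 3 in all overloaded libraries. Prim1, the primase subunit that makes the RNA primer, had 6, 2 and 2 counts in the sham libraries, against 9, 15 and 19 after overload, a ratio of 3.06 (95% counting interval 1.52 to 6.83.) Pole, the catalytic subunit of the leading-strand polymerase, had 1, 1 and 5 counts against 7, 7 and 4, a ratio of 1.83 (95% counting interval 0.730 to 5.19.) The unfiltered edgeR fit called none of these 5, and the lowest edgeR adjusted p among them was 0.0915, for Prim1.

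Fen1, the flap endonuclease that trims Okazaki fragments (chromosome 19, 10199132 to 10204169), had 0 counts in every library. Exons of 2 other genes, Tmem258 and Gm10143, overlap those of Fen1 on the opposite strand. Added over both genes, the overlap with its last 1000 bases came to 943 bases, where a base under both would count for each. The sources used here do not say how reads in more than 1 gene were counted, so this 0 does not show that the gene was silent. Exons of 12 of the 35 genes overlap exons of another annotated gene, and for 8 of them, Ccne2, Chaf1a, Fen1, Gins2, Mcm7, Rfc2, Rfc4 and Rfc5, this includes the last 1000 bases.

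Nucleotide supply held both a large rise and genes that were not called. Rrm2, the small subunit of ribonucleotide reductase whose protein is made in S phase (chromosome 12, 24708241 to 24714146), had 2, 1 and 5 counts in the sham libraries, against 60, 50 and 113 after overload, or 3.89 ± 2.49 and 83.7 ± 40.8 CPM. Overloaded library 3 held about as many reads as libraries 1 and 2 together, and every overloaded library was far above sham. The log2 fold change was 4.29 (SE 0.48, edgeR adjusted p = 6.46e-08), and 4.97 without sham library 3, which held most of the sham reads.

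Rrm1, the large subunit of the same enzyme (chromosome 7, 102441695 to 102469771), had 24, 8 and 6 counts in the sham libraries, against 24, 22 and 42 after overload, or 19.7 ± 13.4 and 33.1 ± 13.6 CPM. Sham library 1 lay above overloaded libraries 1 and 2, and the gene was not called (log2 fold change 0.73, SE 0.43, edgeR adjusted p = 0.216). It was called without sham library 1 (log2 fold change 1.52, edgeR adjusted p = 0.0287), and its adjusted p ranged from 0.0287 to 0.650 over 17 alternatives.

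Dut, the enzyme that removes dUTP (chromosome 2, 125247190 to 125258608), had 27, 16 and 22 counts in the sham libraries, against 80, 67 and 106 after overload, or 33.8 ± 4.56 and 94.5 ± 24.6 CPM, with a log2 fold change of 1.48 (SE 0.29) and an edgeR adjusted p of 0.000243. The groups were well apart. Tyms, which makes dTMP (chromosome 5, 30058202 to 30073617), had 2, 1 and 0 counts in the sham libraries, against 13, 10 and 18 after overload, a ratio of 9.73 (95% counting interval 3.10 to 49.1), and was called by the unfiltered fit only (edgeR adjusted p = 0.0025). Ung, which removes uracil from DNA, had 0, 4 and 1 counts in the sham libraries, against 4, 9 and 14 after overload, a ratio of 3.85 (95% counting interval 1.46 to 12.8), and the groups overlapped.

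No gene of histone supply was called. Slbp, which binds the stem-loop of replication-dependent histone mRNAs (chromosome 5, 33634952 to 33652574), had 38, 13 and 26 counts in the sham libraries, against 35, 43 and 10 after overload, or 38.8 ± 14.1 and 33.1 ± 21.2 CPM. Its libraries were widely spread in both groups, with overloaded library 3 the lowest of all in CPM, and it was not called (log2 fold change -0.26, SE 0.41, edgeR adjusted p = 0.689). The direction turned to 0.10 without sham library 1 and to 0.16 without overloaded library 3. Chaf1a and Chaf1b, subunits of the chromatin assembly factor that places histones on new DNA, had 2 counts each in all sham and 4 and 10 in all overloaded libraries, too few to show a difference.

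Of the regulators, E2f1 (chromosome 2, 154559407 to 154569892) had 3, 1 and 2 counts in the sham libraries, against 38, 18 and 19 after overload, or 3.02 ± 1.15 and 27.0 ± 8.25 CPM, with a log2 fold change of 3.07 (SE 0.57) and an edgeR adjusted p of 0.000112. Overloaded library 1 was the highest for this gene. Ccne1, the gene for cyclin E1, which activates Cdk2 at the entry to S phase (chromosome 7, 38097984 to 38107534), had 5, 0 and 4 counts in the sham libraries, against 17, 19 and 20 after overload, or 4.18 ± 3.73 and 21.1 ± 4.13 CPM, with a log2 fold change of 2.15 (SE 0.59) and an edgeR adjusted p of 0.00599. It lost its call with DESeq2, with the background covariate and without libraries 2 of both groups, with adjusted p from 0.00526 to 0.0647 over 15 alternatives. Ccne2, the gene for cyclin E2, had 1, 2 and 6 counts in the sham libraries, against 1, 2 and 5 after overload, a ratio of 0.633 (95% counting interval 0.213 to 1.85.) Cyclin E1 and cyclin E2 transcripts were thus called in one case and too rare to test in the other, and the difference between them was not tested.

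**Figure D3:**
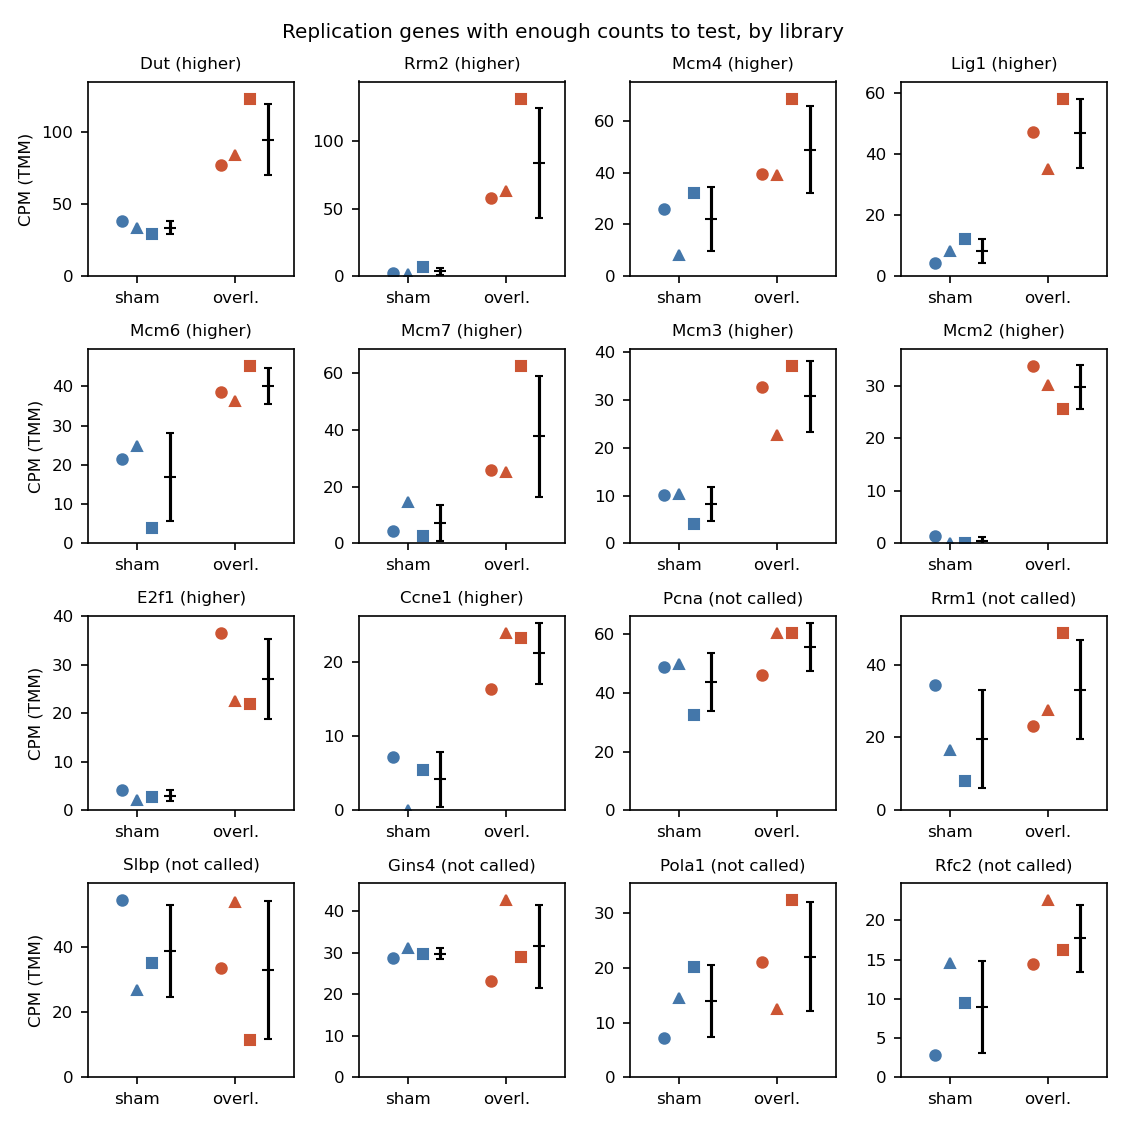
CPM (scaled by TMM) of the 16 replication genes with enough counts to test, 1 panel per gene with its call, circles, triangles and squares for libraries 1, 2 and 3 of each group and black bars for the mean ± SD. In the 10 panels marked higher all overloaded points lie above all sham points, and in the other 6 the groups overlap.

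Overloaded library 3 was the highest overloaded library in CPM for 7 of the 10 called genes, overloaded library 1 for 2 (Mcm2 and E2f1) and overloaded library 2 for 1 (Ccne1). Among all 34 members with a count the numbers were 20, 3 and 11 for overloaded libraries 3, 1 and 2. By role, nucleotide supply summed to 161, 186 and 328 scaled counts in overloaded libraries 1 to 3 and licensing to 197, 157 and 316 scaled counts. The regulators were level across them, at 49.8, 45.8 and 49.3 scaled counts.

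Of 83 other replication genes from lists by role, 48 were tested, 16 rose, 5 fell and 27 were not called, against 29.3% of all genes called. Their median log2 fold change was 0.52. Without overloaded library 3 the numbers were 10 higher and 3 lower, and with the background covariate 10 and 1.

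In the list for chromatin at the fork 3 of 9 tested genes rose. Asf1b, a histone chaperone of dividing cells, had 1, 0 and 0 counts in the sham libraries, against 30, 19 and 45 after overload, a ratio of 66.9 (95% counting interval 11.7 to 2672) (edgeR adjusted p = 1.27e-06). Its relative Asf1a was at 22.3 ± 6.05 and 17.9 ± 6.14 CPM and was not called (edgeR adjusted p = 0.588). Exons of Mcm9 on the opposite strand cover the last 1000 bases of Asf1a, so the counts of Asf1a are uncertain to that extent. Uhrf1, which guides the copying of DNA methylation, rose by 3.84 on the log2 scale (SE 0.69, edgeR adjusted p = 7.66e-05). Dnmt1, the methyltransferase itself, rose by 0.90 (SE 0.34, edgeR adjusted p = 0.0441) and lost its call in 13 of 17 alternatives, among them without any 1 sham library or without overloaded library 3, with adjusted p from 0.0294 to 0.356. Each size rests on few sham reads for Asf1b and Uhrf1, at 7.79 on the log2 scale without sham library 1 for Asf1b and 4.63 without sham library 3 for Uhrf1.

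Of 11 other fork genes tested, 3 rose and 0 fell. Pclaf, a protein that binds the sliding clamp, had 1, 1 and 2 counts in the sham libraries, against 23, 19 and 44 after overload, with a log2 fold change of 3.85 (SE 0.61) and an edgeR adjusted p of 1.56e-05. Pole3, an accessory subunit of the leading-strand polymerase, rose from 23.8 ± 12.2 to 84.4 ± 12.4 CPM (edgeR adjusted p = 9.21e-05), and Tipin, of the fork protection complex, by 1.12 on the log2 scale (SE 0.40, edgeR adjusted p = 0.0322). Tipin was not called without sham library 1, sham library 3, overloaded library 2 or overloaded library 3, with adjusted p from 0.0293 to 0.214 over 17 alternatives. The single-strand binding subunits Rpa1, Rpa2 and Rpa3 were not called (edgeR adjusted p of 0.0951, 0.980 and 0.0922).

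Of 9 other nucleotide genes tested, 5 rose and 2 fell. Nme1, a nucleoside diphosphate kinase, rose from 30.5 ± 5.93 to 115 ± 13.0 CPM, with a log2 fold change of 1.93 (SE 0.28) and an edgeR adjusted p of 3.76e-06. Cad, which starts pyrimidine synthesis, rose by 1.51 (SE 0.37) and Impdh2, of guanine nucleotide synthesis, by 1.45 (SE 0.37). Rrm2b, the alternative small subunit of ribonucleotide reductase that p53 can induce, had 14, 15 and 17 counts in the sham libraries, against 5, 5 and 6 after overload. It fell by 2.0 on the log2 scale (SE 0.50, edgeR adjusted p = 0.00276), so the small subunit genes Rrm2 and Rrm2b moved in opposite directions, each with no overlap between the groups. Rrm2b was not called with the background covariate or after thinning with the replicate block (edgeR adjusted p of 0.0982 and 0.0706).

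Of 8 other origin and helicase genes tested, Topbp1 rose by 0.98 on the log2 scale (SE 0.34, edgeR adjusted p = 0.0285) and Mcm9 fell by 1.63 (SE 0.54, edgeR adjusted p = 0.0229). With 1 gene called in each direction, this list was near the shares over all genes. Topbp1, a scaffold for starting forks, was not called without sham library 1, sham library 3 or overloaded library 3, and ranged from 0.0191 to 0.287 in adjusted p over 18 alternatives. Mcm9, a relative of the helicase that serves repair, was called with all libraries and without sham library 3, and not without any of the other 5, with adjusted p from 0.0175 to 0.377 over 15 alternatives. Its exons share 1748 bases with Asf1a on the opposite strand. Of the origin recognition genes Orc2, Orc3, Orc4, Orc5 and Orc6, which were tested, 0 were called by edgeR. Gmnn, the gene for geminin, which blocks Cdt1 after origins have fired, had 0 counts in sham against 7, 8 and 7 after overload, a ratio of 5.22 against the same floor as Gins2. It was picked after its values were seen.

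Of 11 other regulators tested, 4 rose and 2 fell. E2f3 rose from 17.1 ± 6.83 to 61.3 ± 7.81 CPM (edgeR adjusted p = 0.000137), Cks1b, a partner of cyclin-dependent kinases, by 1.16 on the log2 scale (SE 0.25, edgeR adjusted p = 0.000596) and Rbl1, the gene for the pocket protein p107, by 2.59 (SE 0.59, edgeR adjusted p = 0.0011). Without sham library 2 the rise of Rbl1 was 3.39. Cdkn1a, the gene for the kinase inhibitor p21, had 1035, 699 and 1133 counts in the sham libraries, against 686, 560 and 548 after overload, or 1485 ± 37.5 and 665.3 ± 34.5 CPM, and fell by 1.16 on the log2 scale (SE 0.19, edgeR adjusted p = 2.66e-05). Cdkn1b, the gene for p27, also fell, by 0.89 (SE 0.27, edgeR adjusted p = 0.015), although its groups overlapped. Cdkn1b was not called without sham library 1, overloaded library 1 or overloaded library 3, with adjusted p from 0.000131 to 0.472 over 18 alternatives. Besides Mcm9, Rrm2b, Cdkn1a and Cdkn1b, the fifth gene that fell was Samhd1, which breaks down nucleotides (log2 fold change -0.85, SE 0.26, edgeR adjusted p = 0.0118). Samhd1 was not called without sham library 2, without libraries 2 of both groups, without a count filter, with the background covariate or with DESeq2, with adjusted p from 0.00651 to 0.190 over 18 alternatives. Samhd1 and Cdkn1b fall outside the naming rule and were named because they complete the 5.

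**Figure D4:**
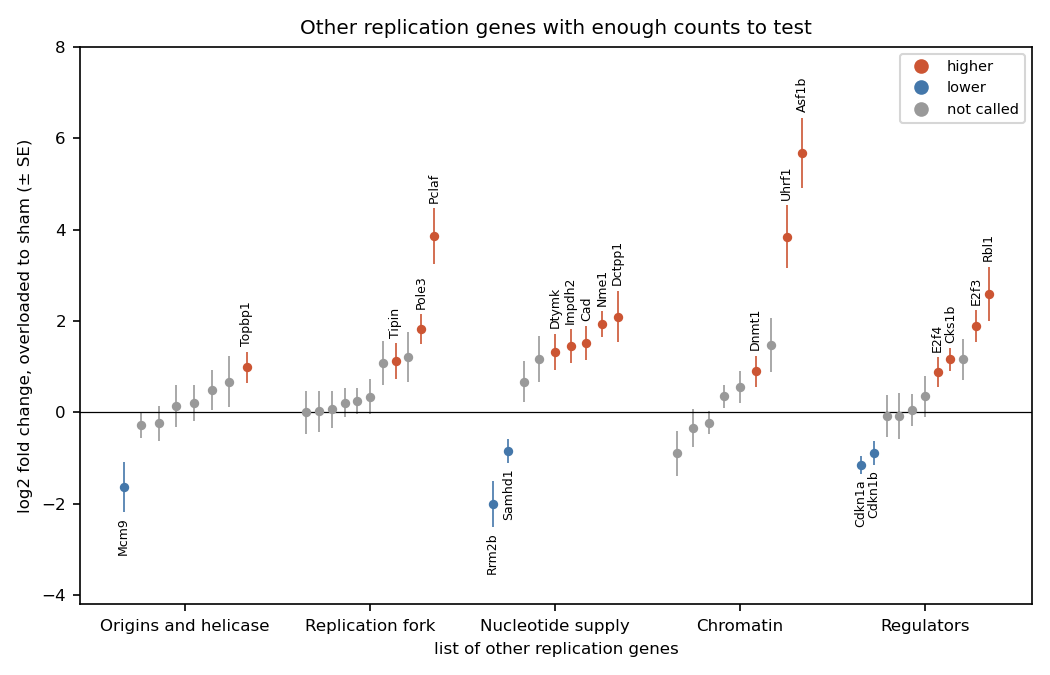
Log2 fold change (overloaded to sham, ± SE) of the 48 other replication genes that were tested, grouped by list, with called genes named, red for the 16 that were higher and blue for the 5 that were lower. Asf1b, Uhrf1 and Pclaf stand highest, and Rrm2b and Mcm9 lowest.

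Markers of other cells that the sort could hold were summed per 1000000 library counts. Satellite cells, which divide in loaded muscle, were marked by 10 genes, of which 9 had a count, and summed to 38.9 to 91.9 in sham and 17.9 to 45.8 in overloaded libraries. Myod1 had 0 counts throughout, and Pax7 had 6 counts in overloaded library 2 and 0 in the others. Leukocyte markers, 8 of 12 with a count, summed to 16.7 to 28.0 in sham and 1.78 to 18.8 in overloaded libraries, and Adgre1, Lyz2 and Tyrobp were at 0 throughout. Endothelial markers, all 10 with a count, summed to 121.9 to 218 in sham and 32.5 to 77.6 in overloaded libraries, with Tek holding the most counts. Pericyte and smooth muscle markers, all 9 with a count, ran from 95.9 to 172 and from 95.2 to 139.7. Muscle fibre markers, 9 of 10 with a count, ran from 37.5 to 60.0 and from 20.5 to 29.4, and erythroid markers, all 5 with a count, from 1.39 to 128.6 and from 2.35 to 26.9.

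Tendon markers, all 7 with a count, ran from 131 to 164 scaled counts in sham and from 3167 to 4220 in overloaded libraries, nearly all of it Thbs4, while the tendon factor Scx had at most 12 counts. Of 6 Schwann and neural markers (Sox10, S100b, Mbp, Ncam1, Prx and Cadm4) 5 had a count, and their sum lay between 30.5 and 45.8 in sham, below the 68.2 to 82.9 reached after overload. Most of it was Ncam1, with 29, 16 and 22 counts in sham and 75, 52 and 74 after overload, and Sox10 was at 0 throughout. The part of tendon or neural cells in the replication counts was not tested. The FAP markers, all 10 with a count and Pdgfra among them, summed to 55290 to 73685 in sham and 68171 to 77933 in overloaded libraries. That sum hides opposite changes: edgeR called 2 of the 10 higher (Col1a1 and Col3a1), 6 lower (Cd34, Dcn, Gsn, Pi16, Dpp4 and Clec3b) and 2 not (Ly6a and Pdgfra). Pdgfra had a mean of 856.7 ± 142.6 CPM in sham against 594 ± 171.6 after overload (edgeR adjusted p = 0.0624).

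Stray reads were gauged on 1992 receptor genes of smell and pheromone sensing (the olfactory and vomeronasal families), for which FAPs have no known use. They averaged 0.523, 0.457 and 0.296 counts per gene in sham and 0.174, 0.466 and 0.104 counts per gene after overload. These averages are not scaled to depth. Scaled like the replication sums, the receptor genes summed to 1445, 1819 and 781 in sham and 308, 1092 and 232 after overload. Overloaded library 2 thus lay above sham library 3, and overloaded libraries 1 and 3 lay below every sham library. The background covariate thus partly follows the group. From 3.06% to 6.43% of these genes had 3 or more counts in a sham library. The sham counts of Mcm2, Mcm5, Tyms, Gins2 and E2f1, at 0 to 3 per library, lie in the range that such genes also reach. Single receptor genes reached 20, 40 and 17 counts in sham libraries 1 to 3. The sham counts of other members with few reads, such as Cdt1, Mcm10, Cdc45, Gins1 and Rrm2, thus lie in that range as well. Stray reads were fewest in overloaded library 3, where the replication sum was highest. Sham library 2 and overloaded library 2 held the largest shares of stray reads in their groups. Without these libraries 9 members were called higher and 0 lower. Of the 10 members called with all libraries 8 stayed called, and Ccne1 and Mcm4 did not.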

How the data were processed

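RNA of sorted FAPs was sequenced in 3 sham and 3 overloaded libraries. The authors deposited whole-number read counts per gene, not normalized. Per the submitters' processing notes, reads were handled with DESeq2 1.28.1, HISAT2 2.2.1, Trim Galore 0.6.6 and featureCounts 2.0.1, on build GRCm38. The sources used here do not give the release of the annotation, the strand setting, how reads in several genes were treated or whether molecular identifiers were collapsed. Without identifiers reads are not independent molecules, so intervals cover counting error only. A floor covers only the counting error of the group with 0 counts.

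The groups were tested in edgeR 4.0.16 under R 4.3.3 (filterByExpr, minimum count 10, minimum total 15, TMM scaling, quasi-likelihood F test with robust dispersions, Benjamini-Hochberg over 7207 genes). CPM are relative to the counts in tested genes after TMM, and the biological coefficient of variation was 21.2%. The SE of a log2 fold change was taken as the fold change over the root of F, without sign. Ratios of summed counts carry exact binomial 95% intervals, conditional on the total. The floor of 3 counts over a group came to 1.56 CPM for sham and 1.11 CPM for overload. The test was checked on simulated counts. Positions are from GENCODE M21, on GRCm38, which held all 54100 identifiers, and promoters from RefSeq.

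The members, lists and alternatives were chosen with earlier results of these data known, so the lists were counted and not tested. All 35 members are described. Of each other list up to 4 called genes were named in order of adjusted p, and any other gene named was chosen after its values were seen. The alternatives were RLE scaling, library size only, no filter or a minimum count of 5 or 30, DESeq2 1.42.0, limma-voom (limma 3.58.1), the replicate number as a block, thinning to equal depth, a background covariate and leaving out libraries. The other Schwann and neural markers are not reported here.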

Additional observations from a re-analysis of the deposited data

How the results depend on the processing

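The summed replication counts had a log2 ratio of 1.37, with a range of 1.14 to 1.49 when 1 library was left out. For this sum only TMM scaling, leaving out Dut and leaving out 1 library were run, and it stayed higher in overloaded libraries. Every overloaded sum lay above every sham sum, so leaving out a library could not turn the direction. Thinning and the background covariate were not applied to the sum. The number of members called higher was 10, and 8 to 13 when 1 library was left out, with 0 lower throughout. Of the 10 called with all libraries, 8 to 10 stayed called when 1 library was left out. The larger numbers thus include members not called with all libraries. The number called was also affected by thinning, the filter and the covariate. The number of members called higher was 2 at a minimum count of 30, where fewer genes are tested. It was 5 after thinning to equal depth, after thinning with the replicate block, and with the background covariate. The other replication genes called higher numbered 16, and 6 at a minimum count of 30, 10 after thinning with or without the block, 10 with the covariate, and 10 to 18 when 1 library was left out. Those called lower numbered 5, and 3 without a filter, at a minimum count of 30, after thinning with the block, with DESeq2 and without libraries 2 of both groups, 1 with the covariate, and 3 to 5 when 1 library was left out. Over all genes 801 were higher after thinning, 748 after thinning with the block and 847 at a minimum count of 30. The covariate left 488 genes higher and 381 lower, and DESeq2 called 557 lower. Leaving out 1 library gave 853 to 1073 higher and 742 to 960 lower.

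Mcm2, Rrm2, Dut, Lig1 and E2f1 were called under every alternative that tested them. Among members not called, the direction turned for Pcna after thinning with the block (-0.00698), for Pola1 (-0.32) and Slbp (0.49) with the covariate, for Slbp without sham replicate 1 (0.10) or overloaded replicate 3 (0.16), and for Gins4 without overloaded replicate 2 (-0.18) or both libraries 2 (-0.16). When 1 library was left out, Slbp ranged from -0.75 to 0.16 and Gins4 from -0.18 to 0.29. The cause was not tested. Deviations of same-numbered libraries correlated at 0.00822, 0.0144 and 0.0149, and those of differently numbered libraries at -0.025 to 0.0112. This check cannot exclude that libraries were paired, since counting error is large in genes with few counts. With the replicate block 10 members were higher. With 2 E2F words in place of 4, 9 of 28 promoters matched. Depth limits the 19 members that were not tested.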
